A study of Mus musculus with 18 samples.

Results

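The 37 genes encoded by the mitochondrial DNA of the mouse were followed in whole kidneys of wild-type (WT) mice and of mice labelled Clr-f-/-. The genes were taken as the rows whose Ensembl identifier carries a symbol beginning with mt-, and they make up 37 of the 53383 rows of the count table. They comprise 13 protein-coding genes, 2 ribosomal RNA (rRNA) genes and 22 transfer RNA (tRNA) genes. The study asked how loss of Clr-f, a C-type lectin-like ligand of the inhibitory receptor NKR-P1G that is made by kidney tubule cells, affects the kidney as mice age. Kidney RNA was sequenced from C57BL/6 mice of both genotypes that were 7, 13 or 24 weeks old, with 3 mice in each of the 6 groups, 1 kidney library per mouse and 18 libraries in all. No group was treated, and the WT groups carry no engineered allele. The Clr-f-/- mice came from targeted C57BL/6 embryonic stem cells and carry the targeted gene in every tissue, not in the kidney alone.

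Mitochondrial DNA is a small circle that is transcribed from both strands into long precursors, which are then cut at the tRNAs that lie between the other genes. Its protein-coding genes all specify subunits of the respiratory chain and ATP synthase, and its rRNAs and tRNAs serve the ribosomes that translate them inside the organelle. The kidney cortex is dense in mitochondria because proximal tubule cells pay for the reabsorption of salt, glucose and amino acids with ATP from oxidative phosphorylation.

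Library totals ranged from 22193736 to 32742734 counts, with a median of 27735931, so that 3 counts, the limit that a count of 0 allows, correspond to 0.0916 to 0.135 CPM (the count of a gene scaled to a library total of fixed size). The summed level of 10 proximal tubule markers was 14534 to 21228 CPM over the libraries, so that the labelled tissue was present in each. Clec2h, the gene of Clr-f, had 1830, 1288 and 663 counts in WT kidneys and 1145, 531 and 430 in kidneys labelled Clr-f-/- at 13 weeks, and over all ages the ranges of the genotypes overlapped. The count of a gene sums all of its exons, and the targeting removed only some of them, so these counts do not check the labels, and groups are called by their labels throughout. Klrb1, another gene of the lectin-like family, separated the labels, with 0 to 4 counts in the 9 WT libraries and 522 to 4163 in the 9 labelled Clr-f-/-. The kidneys labelled Clr-f-/- of 13 weeks stood apart from the rest. Against the WT libraries of the same age, their nuclear genes were higher the higher the GC content of the gene (Spearman's rho across 14877 genes 0.654, 0.743 and 0.699 in the 3 libraries, against -0.136 to 0.120 in the other 15). Counts were found in 23732, 20767 and 19541 rows of these libraries, against 24149 to 26113 in the others. One library labelled Clr-f-/- of 24 weeks, replicate 3, had 18176 counts of Xist and 2 counts of the Y-linked gene Ddx3y, whereas the other 17 libraries had at most 26 counts of Xist. Ddx3y had 599, 116 and 185 counts in the kidneys labelled Clr-f-/- of 13 weeks and 1569 to 2331 in the other 14.

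The sequences shown first are those of the 4 tRNA genes with any count, since they mark which part of the tRNA set the libraries hold. They are given 5′ to 3′ on the strand of the gene, with the anticodon in capitals, from the GENCODE transcripts of GRCm38. All 4 lie on the reverse strand of chromosome M, at chrM:15356-15422 for mt-Tp (proline), chrM:5192-5257 for mt-Tc (cysteine), chrM:5089-5159 for mt-Tn (asparagine) and chrM:14071-14139 for mt-Te (glutamate).
mt-Tp: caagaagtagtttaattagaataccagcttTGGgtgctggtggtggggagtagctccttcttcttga
mt-Tc: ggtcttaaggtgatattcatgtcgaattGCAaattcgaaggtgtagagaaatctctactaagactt
mt-Tn: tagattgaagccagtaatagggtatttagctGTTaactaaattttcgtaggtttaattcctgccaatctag
mt-Te: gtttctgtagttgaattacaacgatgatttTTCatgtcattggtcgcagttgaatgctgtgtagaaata

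The other pair of sequences shows how close mitochondrial genes are to copies in nuclear DNA. The first 60 bases of mt-Nd3, a subunit of complex I, lie at chrM:9459-9518 on the forward strand, and the matching stretch of the pseudogene Gm28438 lies at chr1:24613060-24613119 on the reverse strand of GRCm38. Over the 345 bases that align, the copy differs from mt-Nd3 by the single substitution T3C, counted from the first base of the gene, and the base that differs is in capitals.
mt-Nd3: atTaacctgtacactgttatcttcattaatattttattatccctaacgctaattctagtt
Gm28438: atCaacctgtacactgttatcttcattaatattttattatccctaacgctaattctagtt

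The 37 genes together took 7.77% to 9.87% of all counts in a library. Protein-coding genes held 93.1% to 96.1% of the mitochondrial counts, the rRNAs 3.56% to 6.74% and the tRNAs 0.0981% to 0.782%. Counting error is small at this depth, since the widest 95% Wilson interval of a library's mitochondrial share was ±0.0118 percentage points. Without molecular identifiers, intervals and limits of this kind cover counting error only.

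Among the protein-coding genes, the level per length was highest for mt-Co1, the catalytic subunit of cytochrome c oxidase (complex IV), at 18102 ± 1123 CPM per kb (mean ± SD, 9 WT libraries). It was close to that of mt-Cytb, the cytochrome b of complex III, at 16695 ± 868 CPM per kb, and the ranges of these 2 genes overlapped. The complex I subunits followed, with mt-Nd1 at 12977 ± 877, mt-Nd2 at 9216 ± 593, mt-Nd4 at 6347 ± 427, mt-Nd6 at 5906 ± 560 and mt-Nd5 at 3966 ± 348 CPM per kb. mt-Nd4 and mt-Nd6 lay within the spread of each other. mt-Nd6 is the only protein-coding gene on the reverse strand, and it overlaps the end of mt-Nd5, so reads of the shared bases could be counted for either or neither gene. The rRNAs were lower than every one of these genes, with mt-Rnr2 of the large ribosomal subunit at 2069 ± 331 and mt-Rnr1 of the small subunit at 1746 ± 322 CPM per kb, again within the spread of each other. Between all other neighbours in this order of 9 genes the WT ranges did not overlap. The levels of mt-Co1 and mt-Nd4 divide by the whole gene, although 31.26% and 63.57% of them have a near-identical copy in nuclear DNA. How reads of these stretches were counted is not stated, so the places of both genes in this order are uncertain.

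The other 6 protein-coding genes stood far below. They are neighbours on the chromosome, from mt-Co2 to mt-Nd4l at positions 7013 to 10173, and their counts ranged from 9 to 1377 per library, against 31288 to 975278 for the other 7 protein-coding genes and both rRNAs. In WT libraries mt-Co2 and mt-Co3, the other mitochondrial subunits of complex IV, had 43.2 and 31.0 CPM per kb. mt-Atp6 and mt-Atp8, the membrane subunits of ATP synthase, had 27.7 and 9.33 CPM per kb. The complex I subunits mt-Nd3 and mt-Nd4l had 14.5 and 6.62 CPM per kb. The low level of these 6 genes was shared by every group, and the counts of complex IV and complex I subunits therefore came almost wholly from mt-Co1 and from the 5 complex I genes named above.

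**Figure D1:**
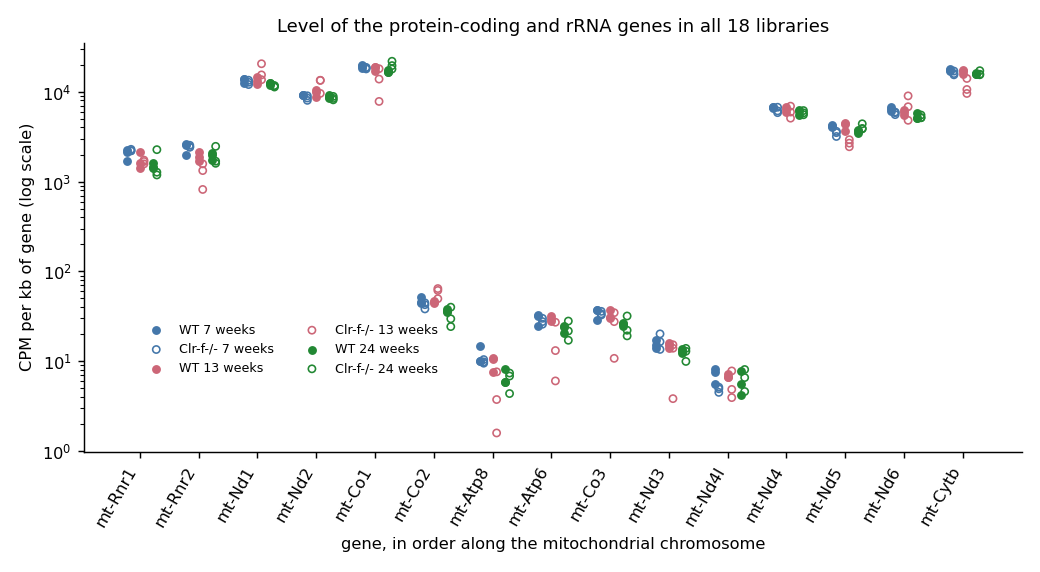
Level of each protein-coding and rRNA gene (y axis: CPM per kb of gene, log scale) in each of the 18 libraries, with genes in their order along the mitochondrial chromosome, WT libraries as filled and kidneys labelled Clr-f-/- as open circles. The 6 neighbouring genes from mt-Co2 to mt-Nd4l hold 9 to 1377 counts in a library and lie far below the other 9 genes in all groups.

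Of these 6 genes, 5 have an annotated copy in the nuclear genome that is 99.71% to 100% identical over nearly the whole gene. The copies lie together on the reverse strand of chromosome 1 between 24611535 and 24616197, as Gm28661 for mt-Co2, Gm10925 for mt-Atp6, Gm28437 for mt-Co3, Gm28438 for mt-Nd3 and Gm10222 for mt-Nd4l. mt-Co2, mt-Atp6, mt-Co3 and mt-Nd4l match their copies at 100% identity over the aligned bases. No annotated copy of mt-Atp8 itself was found, although it lies inside the same stretch. The block also holds copies of the last 31.26% of mt-Co1 (Gm29216) and of the first 63.57% of mt-Nd4 (Gm28439). For the remaining genes no copy this close was found, in a search limited to annotated pseudogenes and not covering every chromosome. How reads that fit both places were counted is not stated in the sources used here. The values of the 6 genes, and those of mt-Co1 and mt-Nd4, are uncertain for that reason. With the counts of the copies added, mt-Co2 had 1217 to 2595 counts, mt-Co3 522 to 2014, mt-Atp6 386 to 1955, mt-Nd3 78 to 316 and mt-Nd4l 52 to 119, so that the block stayed far below its neighbours.

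Of the 22 tRNA genes, 18 were at 0 in all 18 libraries. These were all 14 tRNA genes on the forward strand and 4 of the 8 on the reverse strand. mt-Tn and mt-Te had 0 to 4 counts in a library. mt-Tc had 0 to 9 counts in 17 libraries and 42 counts in replicate 3 of the kidneys labelled Clr-f-/- at 13 weeks. mt-Tp, whose anticodon reads proline codons and which is the gene nearest to the control region on the reverse strand, had 2296 to 13435 counts and was the only tRNA gene that could be tested. The counting strand is not stated, so reads of a precursor from either strand across this position cannot be told apart from the tRNA itself.

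Of the 37 genes, 16 passed the filter on low values used for the tests between groups (at least 1 CPM in at least 3 libraries of the comparison). They are the 13 protein-coding genes, both rRNAs and mt-Tp, and each had at least 1 CPM in every WT library. The other 21 genes, all tRNA genes, did not pass and were not tested.

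The mitochondrial share of the library was lower in every library labelled Clr-f-/- than in every WT kidney of its age at 7 and 13 weeks. The RNA is of whole tissue, in which fewer cells of a type and less RNA per cell cannot be told apart. At 7 weeks it was 9.57%, 9.87% and 9.83% in WT kidneys (mean 9.76% ± 0.164, SD, n = 3) and 9.12%, 9.55% and 8.91% in kidneys labelled Clr-f-/- (9.19% ± 0.328), a difference of -0.567 percentage points with an exact two-sided permutation p of 0.1. At 13 weeks it was 9.87%, 9.79% and 8.73% in WT kidneys (9.46% ± 0.639) and 8.69%, 8.29% and 7.77% in kidneys labelled Clr-f-/- (8.25% ± 0.458), a difference of -1.21 points with an exact permutation p of 0.1. Both values are the smallest that 3 libraries against 3 can give. At 24 weeks the groups overlapped, with 8.71%, 8.54% and 9.00% in WT kidneys (8.75% ± 0.234) and 9.07%, 8.68% and 9.73% in kidneys labelled Clr-f-/- (9.16% ± 0.532), a difference of 0.413 points with an exact permutation p of 0.3.

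Over the 3 ages the mean difference was -0.455 points, and an exact permutation of labels within ages over 8000 arrangements gave p = 0.106. Without the 13-week libraries the mean over 7 and 24 weeks was -0.0767 points (exact permutation p = 0.77 over 400 arrangements). Without replicate 3 of the kidneys labelled Clr-f-/- at 24 weeks, which differs from the others in Xist and Ddx3y, the mean over the 3 ages was -0.550 points (exact permutation p = 0.0275), and the difference at 24 weeks was 0.128 points (exact permutation p = 0.6). Without replicate 2 labelled Clr-f-/- at 24 weeks that difference was 0.654 points (exact permutation p = 0.1, the smallest that 2 libraries against 3 can give).

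**Figure D2:**
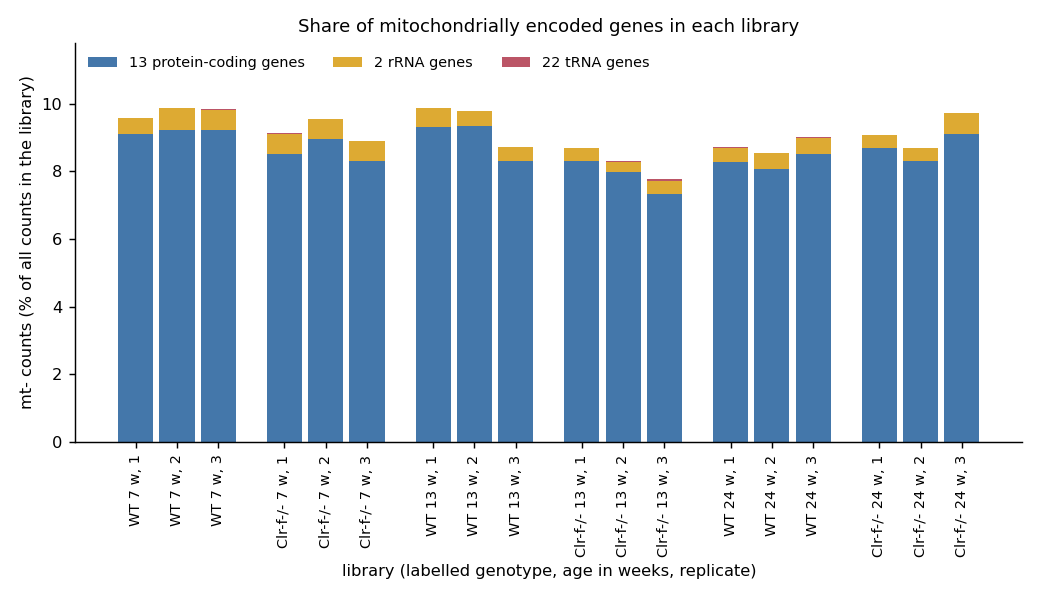
Share of all counts (y axis: %) held by the mitochondrially encoded genes in each library, stacked by protein-coding, rRNA and tRNA genes. The share lies between 7.77% and 9.87%, and the lowest value is that of replicate 3 labelled Clr-f-/- at 13 weeks.

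At 7 weeks most mitochondrial genes had lower values in kidneys labelled Clr-f-/-, by amounts that did not pass the test. None of the 16 genes passed an adjusted p of 0.05 in edgeR's quasi-likelihood test, in which 66 of 14226 genes passed (0.464%). At an unadjusted p under 0.05 there were 3 of 16 (mt-Nd5, mt-Nd4l and mt-Nd6), where 2803 of 14226 genes were, and DESeq2 called 1 of 16, mt-Nd5, where it called 663 of all genes. Both shares were near those of all genes. The log2 fold change was below 0 for 14 of the 16, with a median of -0.17, against 0.01 over all genes tested. With library totals in place of the scaling by trimmed mean of M-values (TMM), 13 were below 0. Their median was then -0.105, against 0.073 over all genes tested. With single libraries left out, the median of the 16 under TMM scaling was -0.198 to -0.102.

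mt-Nd5, a proton-pumping subunit of complex I, had 7791, 7514 and 7355 CPM in WT kidneys and 6395, 6621 and 5797 CPM in kidneys labelled Clr-f-/- at 7 weeks, without overlap. Its log2 fold change was -0.33 (SE 0.099, edgeR adjusted p = 0.148), and DESeq2 gave -0.34 with an adjusted p of 0.00301. mt-Nd6 had 3349, 3489 and 3138 CPM in WT kidneys and 3031, 3082 and 2886 CPM in the others, a log2 fold change of -0.21 (SE 0.086, edgeR adjusted p = 0.231). mt-Nd2, mt-Cytb and mt-Nd4l also had all kidneys labelled Clr-f-/- below all WT libraries in CPM. That makes 5 of the 16 genes without overlap in this direction and 0 in the other, where over all genes tested 6.97% lay wholly below and 19.0% wholly above. mt-Nd4l rests on few counts, with 2.23, 2.42 and 1.65 CPM in WT kidneys and 1.53, 1.34 and 1.47 CPM in kidneys labelled Clr-f-/-.

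Marker sums of other kidney cells moved with the 7-week comparison. The sum of 5 podocyte markers was 323, 273 and 271 CPM in WT kidneys and 364, 372 and 422 CPM in kidneys labelled Clr-f-/-, and that of 5 endothelial markers was 211, 179 and 229 CPM against 245, 341 and 347 CPM, both without overlap. The sum of 10 proximal tubule markers was 18583, 17956 and 16451 CPM against 16827, 15776 and 14534 CPM, with overlap. The sum of 5 red blood cell markers also overlapped, at 131, 83.4 and 201 CPM against 335, 172 and 549 CPM. The part of these cells in the mitochondrial values was not tested.

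At 13 weeks the fold changes of the mitochondrial genes spread over a wider range than at the other ages. mt-Tp, the tRNA of proline, and mt-Co2, a subunit of complex IV, passed the test and were higher in kidneys labelled Clr-f-/-, and the other 14 did not pass, with log2 fold changes from -0.66 for mt-Atp8 to 1.04 for mt-Nd1. Over all genes tested, 5371 of 13864 (38.7%) passed, with 3030 (21.9%) higher and 2341 (16.9%) lower. With 2 of 16 higher and 0 lower, the share of mitochondrial genes called was below this background. The median log2 fold change of the 16 was 0.20, against -0.04 over all genes tested.

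mt-Tp had 120, 133 and 103 CPM in WT kidneys and 152, 297 and 605 CPM in kidneys labelled Clr-f-/-. The groups did not overlap, and replicate 3 was the highest of all 18 libraries. The log2 fold change was 2.42 (SE 0.70, edgeR adjusted p = 0.0401), with a range of adjusted p from 0.000136 to 0.133 over 19 alternatives, of which 12 passed.

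mt-Co2 had 32.4, 31.0 and 30.5 CPM in WT kidneys and 42.1, 34.0 and 44.1 CPM in the others, again without overlap. Its log2 fold change was 1.02 (SE 0.33, edgeR adjusted p = 0.0455, range 0.00103 to 0.277 over 19 alternatives, of which 8 passed). mt-Co2 is one of the 6 low genes, and with the counts of its nuclear copy added it did not pass (0.88, edgeR adjusted p = 0.0644). No gene of the 16 passed with library totals alone, with either of replicates 2 and 3 labelled Clr-f-/- left out, or with any WT library left out, whereas 7 of 16 passed without replicate 1 labelled Clr-f-/-, where 10838 of 13699 genes did. In the settings without a mitochondrial call, 0 or 1 of all genes passed, so these zeros are not particular to the mitochondrial genes.

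The complex I genes mt-Nd1, mt-Nd2 and mt-Nd6 had log2 fold changes near that of mt-Co2 without passing. mt-Nd1 had 13805, 12722 and 11584 CPM in WT kidneys and 13024, 14736 and 19609 CPM in kidneys labelled Clr-f-/- (1.04, SE 0.51, edgeR adjusted p = 0.121). mt-Nd2 had 10297, 10776 and 9110 CPM against 9947, 13915 and 13895 CPM (1.04, SE 0.49, edgeR adjusted p = 0.111). mt-Nd6 had 3276, 3103 and 2890 CPM against 2495, 3534 and 4667 CPM (0.97, SE 0.51, edgeR adjusted p = 0.146). In each of the 3 genes, replicate 1 lay within or below the WT range and replicates 2 and 3 lay above it.

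mt-Co1, mt-Cytb and mt-Nd5 went the other way in CPM, but not in the fit with TMM scaling. In that fit 14 of the 16 genes were above 0, and only mt-Atp8 and mt-Atp6 were below. mt-Co1 had 29396, 29185 and 26495 CPM in WT kidneys and 27864, 21369 and 12049 CPM in kidneys labelled Clr-f-/-. mt-Cytb had 19606, 20001 and 18069 CPM against 16075, 12116 and 10947 CPM, and mt-Nd5 had 7883, 8105 and 6731 CPM against 5335, 4454 and 4886 CPM. The large rRNA mt-Rnr2 had 3375, 2944 and 2679 CPM against 2098, 1293 and 2492 CPM. mt-Cytb, mt-Nd5, mt-Rnr2, mt-Atp6 and mt-Atp8 were wholly below the WT libraries, 5 of 16 where 42.0% of all genes tested were, and mt-Tp and mt-Co2 were wholly above, 2 of 16 where 20.0% were.

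CPM and the fitted fold changes differ at this age because of the scaling. TMM factors were 1.26, 1.20 and 1.23 in WT kidneys and 1.20, 0.762 and 0.585 in kidneys labelled Clr-f-/-, so that a gene of equal CPM is fitted as higher in replicates 2 and 3 labelled Clr-f-/-. With library totals alone, the median of all genes tested moved from -0.04 to -0.55 and that of the 16 mitochondrial genes from 0.20 to -0.37, and 9 of the 16 changed sign. On that scale mt-Co1 was at -0.47, mt-Cytb at -0.56 and mt-Nd5 at -0.63, while mt-Tp was at 1.57, mt-Co2 at 0.35, mt-Nd1 at 0.31, mt-Nd2 at 0.32 and mt-Nd6 at 0.21, none with an adjusted p under 0.05 in edgeR.

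**Figure D3:**
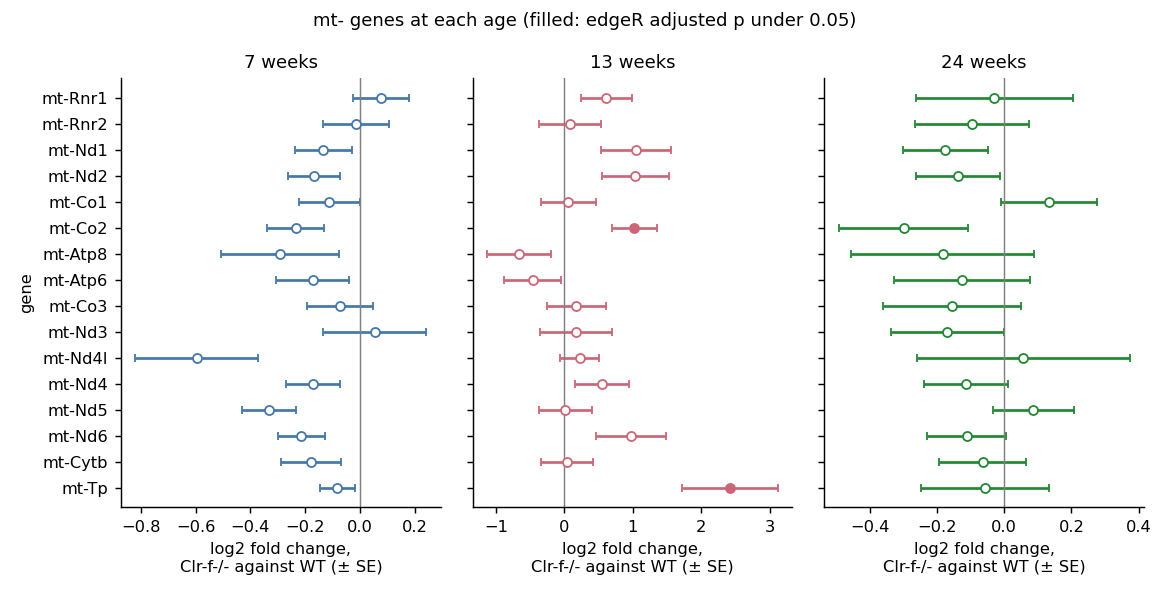
Log2 fold change of each tested gene between kidneys labelled Clr-f-/- and WT kidneys (x axis, ± SE, edgeR with TMM scaling) at 7, 13 and 24 weeks, with filled points for an adjusted p under 0.05. The 3 panels have different x ranges, and only mt-Tp (2.42) and mt-Co2 (1.02) at 13 weeks are filled.

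The mitochondrial genes were set beside nuclear genes of like GC content at 13 weeks. The 15 protein-coding and rRNA genes have GC contents of 31.9% to 41.1%, and mt-Tp of 44.8%. Nuclear genes of 35% to 40% GC had a median log2 fold change of -1.95 (752 genes), those of 40% to 45% had -1.39 (2656 genes) and those of 60% to 65% had 1.35. All 16 mitochondrial genes lay above the median of the nuclear genes of their own GC content, under TMM scaling and under library totals. When offsets removed the trend of every library with gene length and GC content, all 16 had log2 fold changes above 0, with a median of 2.23 against 0.07 over all genes tested, and 12 of the 16 passed where 5.75% of all genes were called higher. mt-Tp itself was at 3.05 with these offsets (edgeR adjusted p = 0.0501), and mt-Atp6 turned from -0.46 to 1.30. Whether the GC trend of nuclear genes holds for mitochondrial genes was not tested.

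**Figure D4:**
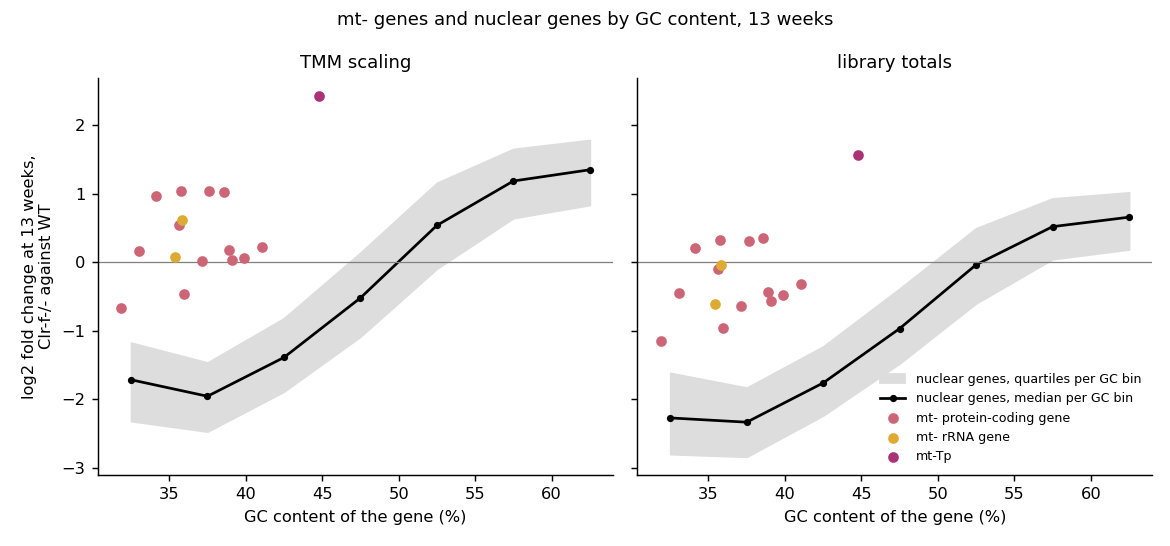
Log2 fold change at 13 weeks (y axis, kidneys labelled Clr-f-/- against WT) by GC content of the gene (x axis, %), with TMM scaling on the left and library totals on the right, where the line and band give the median and quartiles of nuclear genes in bins of GC content and points are mitochondrial genes. Every mitochondrial gene lies above the median line, which is at -1.95 for nuclear genes of 35% to 40% GC under TMM scaling.

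Among the 10 mitochondrial genes with over 1000 counts in every library, the fold change at 13 weeks ran with gene length. Spearman's rho was -0.82 under TMM scaling and -0.85 under library totals across these 10 genes, which share their libraries and of which mt-Tp is the shortest, and rho with GC content was 0.02 under TMM scaling. The same correlation with length was -0.22 at 7 weeks and 0.27 at 24 weeks. Over all 16 tested genes at 13 weeks it was -0.20.

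Ratios of counts between mitochondrial genes within a library do not depend on the scaling, and they are given as a description of genes chosen after their values were seen. mt-Nd1 against mt-Co1 was 0.467, 0.690 and 1.63 in the kidneys labelled Clr-f-/- of 13 weeks and 0.320 to 0.470 in the other 15. mt-Nd2 against mt-Co1 was 0.357, 0.651 and 1.15, against at most 0.369. mt-Nd6 against mt-Nd5, genes that lie end to end on opposite strands, was 0.468, 0.793 and 0.955, against 0.333 to 0.498. In these ratios replicate 1 lay within the range of the other 15 libraries and replicates 2 and 3 lay outside it.

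mt-Tp against mt-Cytb, its nearest protein-coding neighbour, was 0.00946, 0.0245 and 0.0553 in the kidneys labelled Clr-f-/- of 13 weeks and 0.00497 to 0.00746 in the other 15. mt-Rnr2 against mt-Rnr1 was 1.31, 0.781 and 1.66, against 1.68 to 2.36. In both ratios all 3 libraries lay outside the range of the others.

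**Figure D5:**
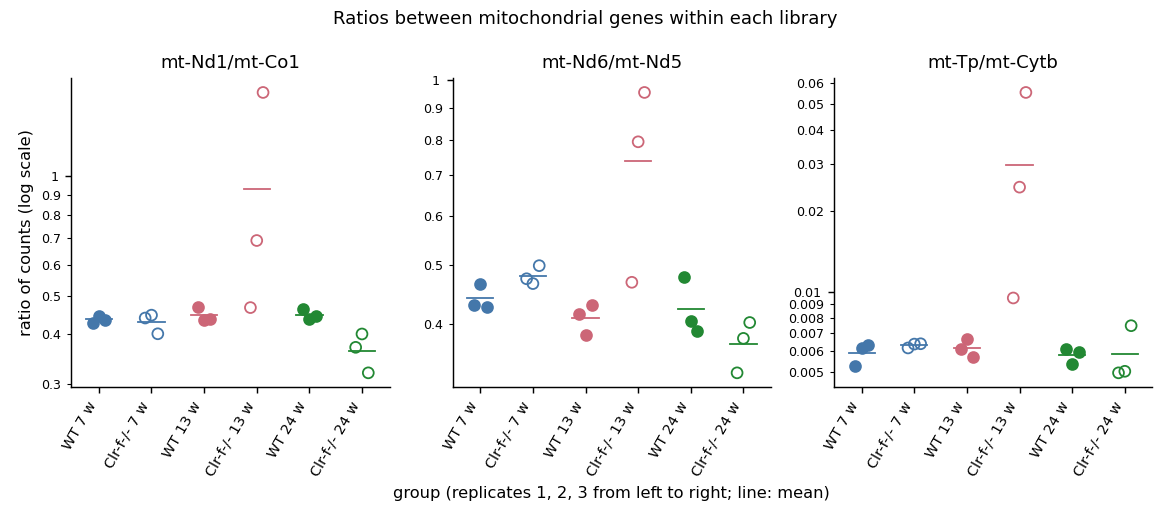
Ratio of counts within a library (y axes, log scale with a range of its own in each panel) for mt-Nd1 to mt-Co1, mt-Nd6 to mt-Nd5 and mt-Tp to mt-Cytb in each library, with lines at the group means. The kidneys labelled Clr-f-/- of 13 weeks spread from within the range of the others (0.467 for mt-Nd1 to mt-Co1) to well above it (1.63), and for mt-Tp to mt-Cytb all 3 lie above it.

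In 16 measures of how mitochondrial counts were divided (the shares of the 3 RNA classes, and each protein-coding gene against the other 12 on the log2 scale), none passed an adjusted p of 0.05 over the 3 ages. The lowest was that of mt-Cytb, at -0.18 (exact permutation within ages p = 0.0065, Benjamini-Hochberg adjusted p = 0.104), followed by mt-Nd5 at -0.18 (exact permutation p = 0.0293, adjusted p = 0.229). The tRNA share differed by 0.105 percentage points (exact permutation p = 0.0485, adjusted p = 0.229). Without the 13-week libraries these became -0.04 for mt-Cytb, -0.04 for mt-Nd5 and 0.00113 points for the tRNA share, with exact permutation p-values of 0.13, 0.555 and 0.915.

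The division of the protein-coding counts at 13 weeks differed most from WT in the same libraries as the ratios. mt-Nd1 took 15.7%, 18.5% and 26.8% of them in kidneys labelled Clr-f-/-, where the WT range at this age was 13.6% to 14.8%. mt-Co1 took 33.6%, 26.8% and 16.5%, against 31.3% to 31.9%. The rRNA share of mitochondrial counts was 4.25%, 3.56% and 5.14%, against 4.56% to 5.46%, and overlapped. Each of these has an exact permutation p of at least 0.1 at 13 weeks alone, the smallest that the design allows.

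At 24 weeks none of the 16 genes passed in edgeR, where 7 of 14270 genes passed (0.0491%). None had an unadjusted p under 0.05 in edgeR either, where 2600 of 14270 genes had. DESeq2 also called 0 of the 16, where it called 657 of 14270 genes. The median log2 fold change was -0.11, against 0.02 over all genes tested, and 13 of 16 were below 0. With GC and length offsets 12 of the 16 changed sign and the median was 0.10. mt-Tp, which had passed at 13 weeks, had 111, 95.3 and 110 CPM in WT kidneys and 89.0, 89.1 and 146 CPM in kidneys labelled Clr-f-/- (log2 fold change -0.06, SE 0.19, edgeR adjusted p = 0.904).

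mt-Nd1 had 11889, 11300 and 12078 CPM in WT kidneys and 11198, 11087 and 10798 CPM in kidneys labelled Clr-f-/- at 24 weeks, and was the only gene wholly below, 1 of 16 where 7.55% of all genes were. mt-Co1 had 25689, 25886 and 27075 CPM against 30165, 27644 and 33727 CPM, and mt-Nd5 had 6342, 6617 and 6770 CPM against 8023, 7045 and 7110 CPM. These 2 of 16 were wholly above, where 22.6% of all genes were. Their log2 fold changes were 0.13 (SE 0.14, edgeR adjusted p = 0.658) for mt-Co1 and 0.09 (SE 0.12, edgeR adjusted p = 0.741) for mt-Nd5. The ratio of mt-Nd1 to mt-Co1 was 0.371, 0.401 and 0.320 in kidneys labelled Clr-f-/- and 0.463, 0.437 and 0.446 in WT kidneys, without overlap. At 13 weeks replicate 1 labelled Clr-f-/- lay within the WT range of that age and replicates 2 and 3 above it.

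Replicate 3 labelled Clr-f-/- had the highest rRNA levels at 24 weeks, with 2165 CPM of mt-Rnr1 against 1132 and 1215 CPM in the other 2 and 1369 to 1544 CPM in WT kidneys. mt-Rnr2 was 3904 CPM in it, against 2668 and 2528 CPM and 2733 to 3289 CPM. Without this library, 0 of the 16 genes passed, where 290 of 14087 genes did, and the median of the 16 was -0.12. Without replicate 1 labelled Clr-f-/- the median of the 16 was -0.0106 with 9 below 0, and with library totals alone it was -0.0267 with 10 below 0. The sum of red blood cell markers was lower without overlap at this age, at 334, 288 and 297 CPM in WT kidneys and 202, 126 and 207 CPM in kidneys labelled Clr-f-/-, and its part in the mitochondrial values was not tested.

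In a test of whether the difference between genotypes itself differed between ages (edgeR, all 18 libraries), 5 of the 16 genes passed, where 8085 of 14932 genes did (54.1%). These were mt-Tp (adjusted p = 0.00714), mt-Co2 (0.00705), mt-Nd2 (0.018), mt-Nd1 (0.0228) and mt-Nd6 (0.0459), all from edgeR. Their difference at 13 weeks exceeded that at 7 weeks by 2.56, 1.31, 1.26, 1.23 and 1.23 on the log2 scale, and that at 24 weeks differed from that at 7 weeks by 0.01, -0.07, 0.02, -0.05 and 0.09. With library totals alone 2 of the 16 passed, 1 in each direction, where 5631 of 14932 genes did. Without the 13-week libraries 0 of the 16 passed in edgeR, where 125 of 14788 genes did. In that fit 1 of the 16 had an unadjusted p under 0.05, mt-Nd5, where 2741 of 14788 genes did.

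In WT kidneys the mitochondrial share was compared between ages with 3 libraries against 3, where an exact permutation p cannot go below 0.1. The genes made up 9.76% of the counts in mice of 7 weeks, 9.46% in those of 13 weeks and 8.75% in those of 24 weeks. The difference from 7 to 24 weeks was -1.01 points without overlap (exact permutation p = 0.1, adjusted p = 0.3 over 3 pairs of ages). From 13 to 24 weeks it was -0.713 points with overlap (exact permutation p = 0.2, adjusted p = 0.3). From 7 to 24 weeks all 16 log2 fold changes were below 0, with a median of -0.24 against -0.00231 over all genes tested, and 1 passed. Of 14350 genes, 1621 (11.3%) passed and 744 (5.18%) were lower. Marker sums moved with this comparison, without overlap: that of adipocytes was 0.777 to 2.17 CPM at 7 weeks and 23.9 to 86.8 CPM at 24 weeks, and that of red blood cells was 83.4 to 201 CPM and 288 to 334 CPM. Their part in the mitochondrial values was not tested.

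The gene that passed was mt-Co2, which fell by 0.35 on the log2 scale (SE 0.087, edgeR adjusted p = 0.0289, range 0.00277 to 0.257 over 17 alternatives, of which 12 passed). It had 30.9, 35.8 and 30.1 CPM at 7 weeks, 32.4, 31.0 and 30.5 CPM at 13 weeks and 26.2, 24.6 and 24.1 CPM at 24 weeks. The 24-week libraries lay below all others. With its nuclear copy added, the value was -0.15 (edgeR adjusted p = 0.257), and it did not pass without any one of WT replicates 1 and 2 of 7 weeks or 2 and 3 of 24 weeks.

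Other genes of the low block were close to the threshold, with mt-Atp8 at -0.79 (SE 0.24, edgeR adjusted p = 0.0557) and mt-Co3 at -0.40 (SE 0.12, edgeR adjusted p = 0.0605). The rRNA mt-Rnr1 had 1633, 2142 and 2016 CPM at 7 weeks and 1405, 1369 and 1544 CPM at 24 weeks (-0.41, SE 0.14, edgeR adjusted p = 0.0885). mt-Rnr2 had 3106, 4174 and 4024 CPM at 7 weeks and 2733, 3132 and 3289 CPM at 24 weeks (-0.29, SE 0.12, edgeR adjusted p = 0.156), with overlap. The abundant protein-coding genes differed less, from -0.04 for mt-Nd2 to -0.24 for mt-Nd6.

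Between 7 and 13 weeks in WT mice 0 of the 16 genes passed in edgeR, where 3.49% of all genes did. DESeq2 called 0, where it called 1052 of 14350 genes. At an unadjusted p under 0.05 there was 1 of 16, where 3157 of 14350 genes were, mt-Rnr2 at -0.32 (edgeR adjusted p = 0.164). Between 13 and 24 weeks 0 passed, where 0.85% of all genes did, and DESeq2 called 0, where it called 464 of 14350 genes. The genes with an unadjusted p under 0.05 were 4 of 16 (mt-Co2, mt-Atp6, mt-Co3 and mt-Atp8, all of the low block), where 2217 of 14350 genes were.

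Nuclear genes supply the other subunits of the same complexes, and they were set beside the mitochondrial genes. Of 78 listed nuclear subunits of complexes I to V, 73 were tested. At 7 weeks 54 were above 0 and 19 below, 0 passed and the median was 0.08, while 14 of 16 mitochondrial genes were below 0. At 13 weeks 38 of 73 were called higher and 3 lower, where 21.9% of all genes were higher and 16.9% lower, with a median of 1.16, against 2 and 0 of the 16 mitochondrial genes and a median of 0.20. At 24 weeks 72 of 73 were below 0 with a median of -0.26, and 0 passed.

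Within complex I, 19 of 35 nuclear subunits were called higher and 1 lower at 13 weeks, and none of the 7 mitochondrial subunits was called, against the same shares of all genes. Ndufb8, an accessory subunit of the membrane arm, had 147, 140 and 138 CPM in WT kidneys and 212, 405 and 893 CPM in kidneys labelled Clr-f-/- (log2 fold change 2.697, SE 0.72, edgeR adjusted p = 0.0400). Ndufa5, an accessory subunit of the matrix arm, was lower (-1.21, SE 0.35, edgeR adjusted p = 0.0401). In complex IV, Cox4i1, which binds the mitochondrially encoded core, had 768, 673 and 693 CPM against 1052, 2410 and 5187 CPM, while mt-Co1 had its lowest values in the same replicates 2 and 3.

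In complex III, Cyc1 (cytochrome c1) rose by 2.23 on the log2 scale (SE 0.61, edgeR adjusted p = 0.0400), and Uqcrb, a small subunit, had 185, 155 and 154 CPM in WT kidneys against 94.6, 39.4 and 28.2 CPM (-1.16, SE 0.28, edgeR adjusted p = 0.0400). Complex II, which has no mitochondrially encoded subunit, had 2 of 4 called higher, Sdhb (2.33) and Sdhc (1.66). In complex V 8 of 15 were called higher, Atp5d (2.53) and Atp5g2 (2.23) among them, and 0 lower. Over all genes tested at 13 weeks, 21.9% were called higher and 16.9% lower.

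With GC and length offsets the nuclear subunits had 13 of 73 called higher, where 5.75% of all genes were, and 0 lower, where 419 of 13864 genes were. Their median was 0.80, with 60 above 0, against a median of 2.23 for the mitochondrial genes. The order of the 2 medians was thus reversed by the offsets. With library totals alone the median of the nuclear subunits was 0.49 and that of the mitochondrial genes -0.37, and 0 of either passed.

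Of 30 tested genes for mitochondrial transcription and RNA processing, 4 were called higher and 5 lower at 13 weeks, where 21.9% of all genes were higher and 16.9% lower. Hsd17b10, a subunit of mitochondrial RNase P, was higher (1.85), as was Fastk (1.74), which acts on the mt-Nd6 transcript. Mterf1a, of the mitochondrial termination factor family, had 3.37, 2.66 and 3.29 CPM in WT kidneys and 0.947, 0 and 0.0901 CPM in kidneys labelled Clr-f-/- (-2.76). Pnpt1, the mitochondrial polynucleotide phosphorylase that degrades RNA, had 31.2, 29.1 and 28.7 CPM against 11.7, 1.01 and 1.08 CPM (-2.45). With the offsets 3 were called higher and 0 lower, where 797 of 13864 genes were higher and 419 lower.

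Of 8 tested genes that maintain mitochondrial DNA, Polg, the catalytic subunit of its polymerase, was called higher (0.93) and Ssbp1, its single-strand binding protein, lower (-2.19), 1 of 8 each way where 21.9% of all genes were higher and 16.9% lower. With the offsets 0 of these 8 were called higher and 1 lower, where 797 of 13864 genes were higher and 419 lower. Of 7 regulators of mitochondrial biogenesis, Esrra (1.86) and Pprc1 (1.13) were called higher and 3 were called lower, among them Ppargc1a (-2.27) and Gabpa (-1.97). Ppargc1a, a coactivator of mitochondrial biogenesis, had 70.5, 67.9 and 77.7 CPM in WT kidneys and 23.8, 5.10 and 5.59 CPM in kidneys labelled Clr-f-/-. With the offsets 0 of these 7 passed, where 1216 of 13864 genes did.

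Of 74 tested proteins of the mitochondrial ribosome, whose rRNAs are mt-Rnr1 and mt-Rnr2, 36 were called higher and 3 lower at 13 weeks, where 21.9% and 16.9% of all genes were, with a median of 0.99. Mrpl28 (2.77) and Mrpl12 (2.53) had the largest values, and Mrpl50 (-1.71) and Mrpl47 (-1.62) were lower. mt-Rnr1 was at 0.62 (SE 0.37, edgeR adjusted p = 0.19) and mt-Rnr2 at 0.08 (SE 0.45, edgeR adjusted p = 0.89). With the offsets 18 were called higher, where 5.75% of all genes were, and 2 lower, where 419 of 13864 genes were. At 24 weeks 70 of 74 were below 0, with a median of -0.20 and 0 called.

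Between 7 and 24 weeks in WT mice, where all 16 mitochondrial genes were below 0, the nuclear subunits of complexes I to V were split with 30 above and 43 below 0, and 0 of 73 passed. Of the mitochondrial ribosomal proteins 51 of 74 were above 0 and 4 rose, Mrps34 (0.36) and Mrpl34 (0.25) among them, where 877 of 14350 genes rose. Of the transcription and RNA processing genes 1 of 30 fell, Angel2 (-0.21), and of the biogenesis regulators 1 of 7 fell, Gabpa (-0.21), where 744 of 14350 genes fell.

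Markers of other cells moved with the 13-week comparison. The sum of 7 adipocyte markers was 1.90 to 2.92 CPM in WT kidneys and 25.01, 787 and 103 CPM in kidneys labelled Clr-f-/-, with the highest value in replicate 2. The sum of 5 red blood cell markers was 123 to 322 CPM against 570, 1098 and 2095 CPM, highest in replicate 3, as were mt-Tp and the ratio of mt-Nd1 to mt-Co1. The sum of 8 immune cell markers was 17.2 to 23.9 CPM against 8.38 to 10.9 CPM, that of 6 collecting duct markers 530 to 561 CPM against 920 to 1057 CPM, and the proximal tubule sum was 16293 to 17988 CPM against 18927 to 21228 CPM. The sum of Xist and 4 Y-linked genes was 166 to 183 CPM against 49.3, 7.34 and 18.6 CPM. No marker of these lists was at 0 in all libraries. The part of these cells in the mitochondrial values was not tested.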

How the data were processed

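Total RNA of frozen kidneys was sequenced as paired ends on a HiSeq 4000, with 3 mice per group and 18 libraries. The authors kept reads of high base quality, aligned these to GRCm38.p6 using STAR 2.7.5a and removed duplicate reads. They deposited whole-number counts per gene or transcript, under a name that reads FPKM. The submitters' processing notes also name FastQC 0.11.5 and DESeq2 1.28.1. Library preparation, strand and the counting of reads with several positions are not given in the sources used here. Removing duplicates without molecular identifiers limits the fragments a short, abundant gene can hold, and the size of that effect was not tested.

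The deposited counts were used without change. Identifiers were matched to a GENCODE annotation of GRCm38 for 53095 of 53383 rows (99.46%). CPM is relative to the library total, and CPM per kb divides by the length of the gene. A gene was tested where 3 or more libraries reached 1 CPM, using edgeR 4.0.16 (R 4.3.3, TMM scaling, quasi-likelihood test, Benjamini-Hochberg adjustment over all genes, threshold 0.05). Genotypes were compared with the 6 libraries of each age, WT ages with the 9 WT libraries and the interaction with all 18. Shares were compared by exact two-sided permutation of labels, within ages where ages were combined (SciPy 1.17.1). Nuclear copies were found with BLAST 2.17.0 among annotated transcripts, on the same strand only. Hits of at least 90% identity over at least 100 bases were kept where they were annotated as pseudogenes, and not every chromosome was included. Genes named from the mitochondrial set are its members, and those named from a nuclear list are at most 2 called higher and 2 called lower per list, by size of change. The members and lists were chosen with earlier results of these data known. Alternatives were other scalings, filters, DESeq2 1.42.0, limma 3.58.1 (voom), offsets for GC content and length, the replicate number as a block and leaving out each library. The counts of nuclear copies added, and the 13-week libraries left out, were alternatives chosen after seeing the data. The code was tested on simulated data. The 18 pairs of replicates differed by more than sampling noise.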

Additional observations from a re-analysis of the deposited data

Results flagged for a closer look

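The difference between genotypes differed between ages for 5 of the 16 tested genes, by edgeR's test of the interaction over all 18 libraries. The adjusted p was 0.00705 for mt-Co2, 0.00714 for mt-Tp, 0.018 for mt-Nd2, 0.0228 for mt-Nd1 and 0.0459 for mt-Nd6, where 54.1% of all genes passed. The log2 fold change at 13 weeks exceeded that at 7 weeks in all 5, by 1.23 to 2.56, and without the 13-week libraries none of the 5 passed in edgeR (adjusted p 0.732 to 0.968), an alternative chosen after seeing the data.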

How the results depend on the processing

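In this paragraph and the next, brackets after a count hold the number of all genes that passed. At 7 weeks 0 of the 16 genes passed (66 of 14226), 1 with no filter (1323 of 31321) and 1 with DESeq2 (663 of 14226), and 0 to 0 with single libraries left out (7 to 203). At 13 weeks 2 passed (5371 of 13864, the total unless another is given). Against this, 1 passed with upper-quartile scaling (3792), 0 with library totals (0), 1 with no filter (5596 of 29763) and 1 with a minimum of 10 counts (3538 of 12975). With DESeq2 4 passed (7781), and with voom 8, of which 7 higher and 1 lower (10063, of which 4854 higher and 5209 lower). With all 18 libraries fitted 7 passed (10274), with GC and length offsets 12 (1216) and with copies added 1 (5372 of 13857). With single libraries left out 0 to 7 passed (0 to 10838). The median of the 16 genes at 13 weeks, 0.20, became -0.37 with library totals and 0.043 with upper-quartile scaling. It was 0.15 to 0.46 with single libraries left out. mt-Atp6 moved from -0.46 to 1.30 with the offsets. At 24 weeks the median became 0.10 with the offsets. In WT mice, with no filter 2 passed at 13 against 7 weeks (1475 of 32874) and 3 at 24 against 13 weeks (1303 of 32874). The median at 13 against 7 weeks was -0.10 to 0.023 with single libraries left out, above 0 without WT replicate 2 of 7 weeks. At 24 against 7 weeks 1 passed (1621 of 14350, the total unless another is given). Against this, 2 passed with library totals (1521), 7 with no filter (2832 of 32874), 3 with DESeq2 (2021) and 2 with the offsets (1592). With copies added 0 passed (1619 of 14343), and with single libraries left out 0 to 3 (574 to 1838). In the interaction 5 passed (8085 of 14932), against 2 with library totals (5631 of 14932) and 16 with the offsets (4845 of 14932). Without the 13-week libraries 0 passed (125 of 14788), and with single libraries left out 2 to 8 (6400 to 11490). The share over 3 ages ranged from -0.577 to -0.374 points, and 0 to 1 measures of composition passed, with single libraries left out. The cause was not tested.

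When replicate numbers were fitted as a block, 1 gene passed at 13 weeks (4704 of 13864). With block and offsets 12 passed (1238 of 13864), and mt-Atp6 was at 1.30. At 24 against 7 weeks in WT mice 2 passed with the block (1150 of 14350). The median between genotypes at 24 weeks with block and offsets was 0.082. Same-numbered libraries correlated at -0.255 to 0.275 between genotypes and at -0.266 to 0.327 between WT ages, and in no comparison of genotypes or of WT ages were all 3 correlations above 0.1, so the numbers were not taken to pair the mice.

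Over all genes, 66 passed at 7 weeks, against 1323 with no filter, 663 with DESeq2, 176 with voom, 2 with all libraries fitted, 106 with the block, 143 with block and offsets and 7 to 203 with single libraries left out. At 13 weeks 5371 passed, against 0 with library totals, 3538 with the count minimum, 10063 with voom, 10274 with all libraries fitted, 1216 with the offsets, 1238 with block and offsets and 0 to 10838 with single libraries left out. At 24 weeks 7 passed, against 0 with library totals, 66 with no filter, 657 with DESeq2, 1254 with voom, 1 with all libraries fitted, 0 with the offsets, 1 with the block and 0 to 290 with single libraries left out. In WT mice 501 passed at 13 against 7 weeks (1475 with no filter, 1052 with DESeq2, 266 with the offsets, 226 with the block), 122 at 24 against 13 weeks (1303, 464, 140 and 76) and 1621 at 24 against 7 weeks (2832 with no filter). With single libraries left out these ranged from 59 to 782, from 9 to 377 and from 574 to 1838. In the interaction 8085 passed, 4845 with the offsets. With library totals the split of those calls moved from 4211 higher and 3874 lower to 1591 and 4040.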

Other observations

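mt-Tc, the cysteine tRNA on the reverse strand, had 42 counts in replicate 3 labelled Clr-f-/- at 13 weeks and 0 to 9 counts in the other 17 libraries. The same library had the highest counts of mt-Tp, at 13435. Both genes were named here after their values were seen, and mt-Tc did not pass the filter for a test.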
